A study of Brassica napus with 11 samples.

Results

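In the funiculus of *Brassica napus*, 33 of 97902 transcripts reached at least 10 FPKM in each of 3 vasculature libraries and were listed at exactly 0 in all 3 epidermis and both cortex libraries. FPKM is the number of sequenced fragments scaled for transcript length and for the mapped reads of the library. The rule takes its members from the measured values themselves, so their presence in the vasculature and their absence from the outer tissues (the epidermis and cortex) are descriptions here and carry no test. A single further transcript that meets the same rule is not described. The funiculus is the stalk that ties the developing seed to the mother plant. Plants of the doubled haploid line DH4079 of cultivar Topaz, as the labels spell it, were sampled 7 days after pollination, when the seed holds a globular embryo. Epidermis, cortex, vasculature and whole funiculus were cut out by laser microdissection, a microscope method in which a laser traces each tissue from a section, and each library pooled tissue pieces from several plants. No genotype or treatment differed between the groups. The groups held 3, 2, 3 and 3 libraries, and whole funiculus 2, which the study set aside for standing apart from all other libraries, enters no main value or fit here.

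The vasculature of the funiculus is the supply line of the seed. Phloem sieve elements bring sugars and amino acids, xylem vessels bring water and minerals, and procambial cells between them keep dividing and give rise to both. The strand ends at the seed coat, and the remaining distance to the embryo is crossed from cell to cell. The vasculature libraries carried their defining markers: 3 xylem transcripts of *XCP2* and *IRX3* summed to between 55.4 and 83.1 FPKM in the vasculature and to between 0.147 and 0.405 FPKM in the epidermis, and 5 phloem transcripts of *SUT2*, *APL* and *SEOB* to between 148 and 206 against 0.991 to 3.13 FPKM. In the cortex the xylem set summed to 1.76 and 7.73 FPKM and the phloem set to 2.75 and 9.43 FPKM, the lower of which lies within the range of the epidermis. In the vasculature, 4 epidermis transcripts (*PEL3*, *MYB16* and *LTP2*) summed to between 1.12 and 16.6 FPKM, against 1922 to 3667 FPKM in the epidermis and 212 and 697 FPKM in the cortex. One transcript of the phloem set, *SEOB*, is itself a member, so its absence from the outer tissues follows from the rule. Most of these markers were picked by the study on these same libraries. The sums are thus a description and no independent check of the dissection.

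How much a listed 0 can exclude depends on the number of sequenced fragments behind it. The FPKM values of a transcript across libraries were whole multiples of a common step once each library's relative depth was taken into account. Such a step was found for 54372 of 54445 transcripts with 3 or more values above 0 (99.9%) and for all 33 members, but for 5 of 3000 transcripts when the depths were exchanged between libraries. The step is the FPKM worth of 1 fragment, and it gives the fragments counted in each library, as the smallest whole numbers that fit. The recovered fragments summed to between 936887 and 2155675 in the epidermis and cortex libraries, between 1294765 and 2322096 in the vasculature, and to 1911118 and 2651303 in whole funiculus 1 and 3.

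The members rested on few fragments. Over all 3 vasculature libraries they had between 6 and 246 fragments each, with a median of 38, against a median of 301 in the 6126 other transcripts that also reached 10 FPKM in each vasculature library and whose step was found. Their levels were alike, since the median of the mean vasculature values was 23.5 FPKM in the members and 24.9 FPKM in the others. What differed was the worth of a fragment. In whole funiculus 3, 1 fragment was worth a median of 0.847 FPKM in the members, with a range from 0.123 to 36.4 FPKM, and 0.172 FPKM in the others. FPKM scales for transcript length, so a fragment is in general worth more in a shorter gene model. Lengths of the members were not at hand, and their part in these steps was not tested. Fewer than 50 vasculature fragments were found in 18 members (54.5%) and in 2.38% of the other transcripts. Seen from the other side, the members made up 11.0% of the 164 transcripts under 50 fragments and 0.250% of the 5995 with 50 or more.

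**Figure D1:**
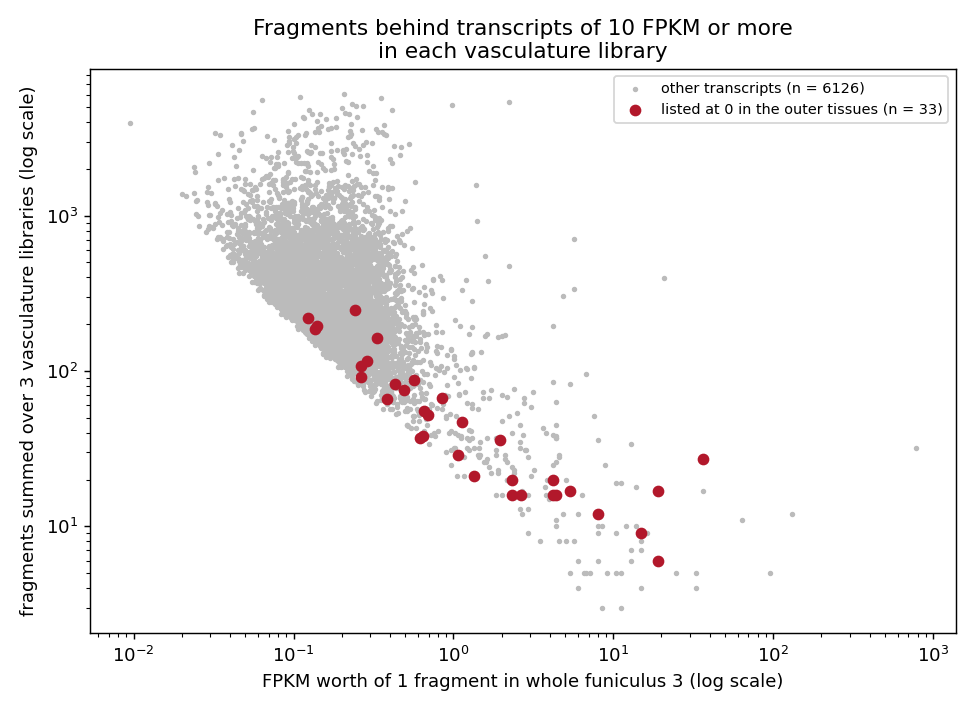
Fragments summed over the 3 vasculature libraries (vertical, log scale) against the FPKM worth of 1 fragment in whole funiculus 3 (horizontal, log scale) for transcripts of at least 10 FPKM in each vasculature library. The 33 members (red) had between 6 and 246 fragments with a median of 38, against a median of 301 in the 6126 others (grey).

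Only 15 members had 10 or more fragments in each vasculature library, and 8 had fewer than 10 in every one of them. For 4 members a single fragment alone was worth 10 FPKM or more in each vasculature library, so that 1 fragment in each was enough to meet the rule. These are BnaC08g42020D, BnaC06g31080D, BnaC06g29620D and BnaA09g30770D, and they include the most abundant members by FPKM. The *CXXS1* transcript BnaC08g42020D, which encodes a thioredoxin-like protein whose active site has lost a cysteine, stood at 258, 1362 and 217 FPKM in vasculature 1 to 3. Behind these values were 4, 18 and 5 fragments. BnaC06g29620D rested on 3, 1 and 2 fragments and BnaA09g30770D, a gene for an unknown protein, on 1, 7 and 1. In vasculature 3, for comparison, the 13.6 FPKM of BnaC03g30640D rested on 84 fragments and the 217 FPKM of *CXXS1* on 5.

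If the listed 0s are taken as counts of 0, the level that they allow can be set from 3 fragments, the upper limit of a count of 0 at 95% confidence, over the 5 outer libraries together. Against this limit the members were at least 2.45-fold to at least 100-fold higher in the vasculature, with a median bound of 15.5-fold. The bound was 10-fold or more for 21 members, 5-fold or more for 30, and under 5-fold for 3. Those 3 were BnaC06g29620D, BnaA09g30770D and BnaAnng38100D. For a single outer library the limit is higher, and in 20 of 33 members the lowest vasculature value still lay above 3 fragments in the shallowest outer library. In the other 13 it did not, and absence from that library alone is not detectable at this depth. The bounds set the observed vasculature fragments against the limit. They leave out the counting error of the vasculature itself, which is wide for members of few fragments. The limit also suits a transcript named beforehand, whereas the members were kept because their outer values were 0. A further 38 transcripts at the same vasculature level had 1 outer fragment. The bounds, here and for single genes below, can therefore be too high and are descriptions. The limits of a 0 cover counting error only, since the cDNA was amplified and no molecular identifiers were used. An exact 0 in such a table can also be a failed estimate. Among transcripts with 20 or more fragments in both other replicates, 4, 0 and 17 were listed at 0 in epidermis 1, 2 and 3, of 11184, 11492 and 10032.

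**Figure D2:**
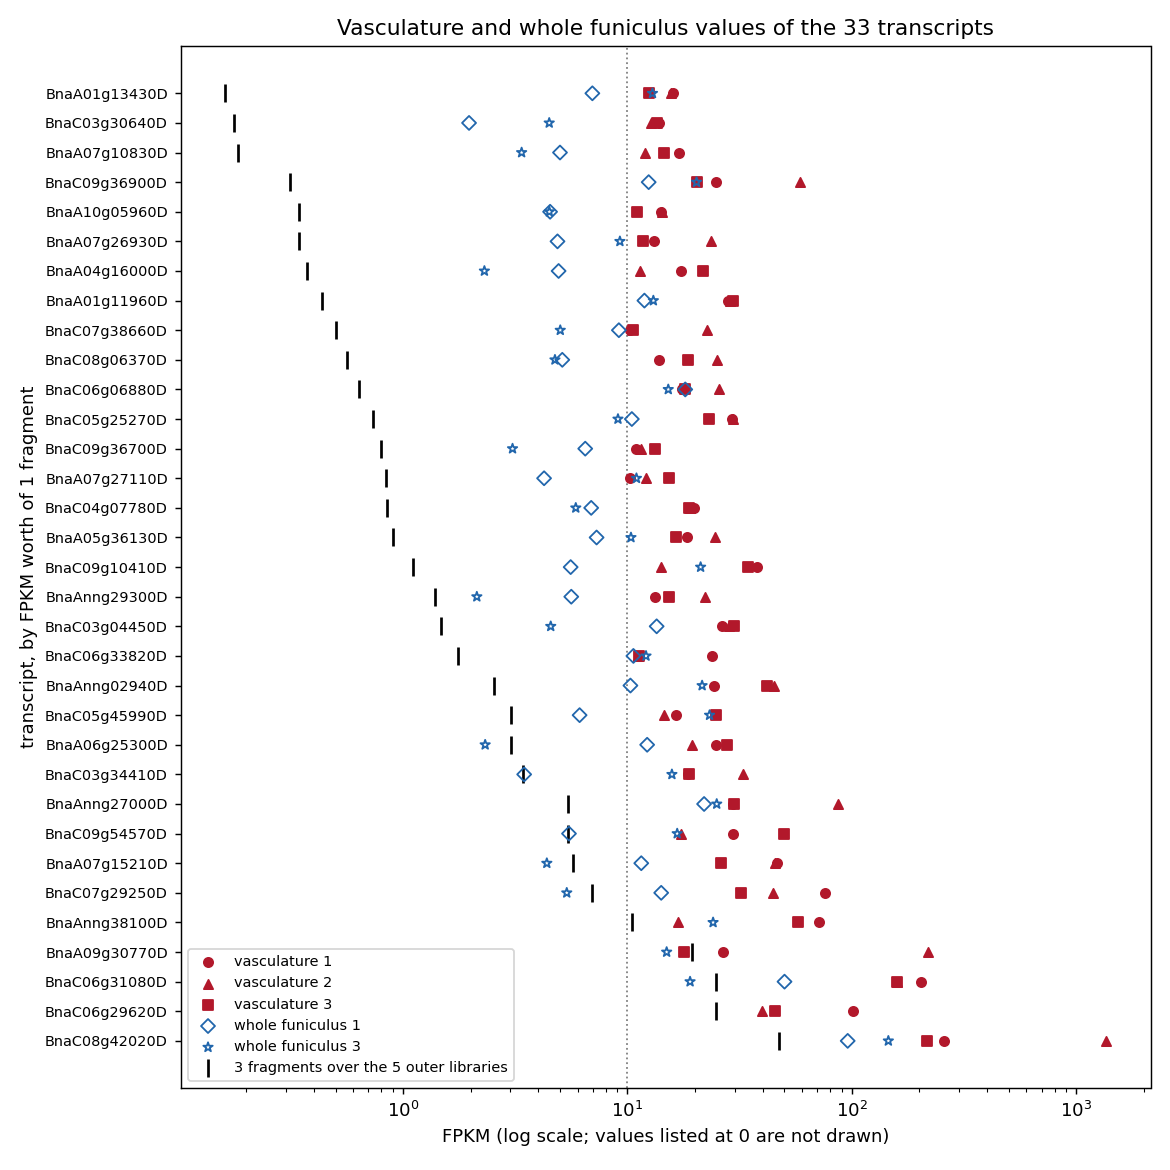
FPKM (log scale) of each member in vasculature 1 to 3 (filled red) and whole funiculus 1 and 3 (open blue), with the level that 3 fragments over the 5 epidermis and cortex libraries would give (black bar) and the threshold of 10 FPKM (dotted); values of 0 are not drawn. The bars rise from 0.160 FPKM for BnaA01g13430D to values that overlap the vasculature points for BnaA09g30770D.

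The best covered members were not the ones with the highest FPKM. The HSP20-like gene BnaC09g36900D, of a family built on the fold of small heat shock chaperones, had 58, 117 and 71 fragments, which correspond to 24.9, 58.9 and 20.5 FPKM. It was at least 100-fold higher in the vasculature than the outer libraries allow. Its value in vasculature 2 was more than that of either other library, and the remaining pair lay close together. The gene for an HMG box protein, BnaA01g13430D, had 73, 61 and 85 fragments or 16.0, 15.6 and 12.5 FPKM. In Arabidopsis the matching protein associates with condensed chromosomes in dividing cells. Its bound was at least 89.4-fold, and its 3 values differed by a factor of 1.28 from the lowest to the highest.

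Transport was represented by a phloem gene and a membrane carrier. The *SEOB* transcript BnaC03g30640D encodes a subunit of the protein filaments that fill sieve elements and seal them after wounding. It stood at 13.8, 12.7 and 13.6 FPKM, on 57, 45 and 84 fragments, a mean of 13.4 ± 0.557 FPKM (SD, n = 3), and was at least 75.9-fold above the outer limit. BnaA07g10830D belongs to the MtN21/EamA-like carriers, a family with characterised amino acid exporters in Arabidopsis. It had 17.0, 12.0 and 14.6 FPKM on 68, 41 and 87 fragments, and a bound of at least 80.0-fold. For both, the lowest vasculature value lay above the limit of every single outer library.

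Genes with regulatory domains ranged from NAC097, with a mean of 13.1 FPKM in the vasculature, to a zinc finger gene with 51.0 FPKM. BnaA10g05960D, for the NAC domain transcription factor NAC097, stood at 14.1, 14.3 and 11.0 FPKM on 30, 26 and 35 fragments, at least 37.1-fold above the limit. The RAD-like 4 transcript BnaA06g25300D, from a family of small MYB-related proteins, had 24.8, 19.3 and 27.7 FPKM on only 6, 4 and 10 fragments. Here the bound was at least 8.16-fold. BnaC06g33820D encodes IQ-domain 8, of a calmodulin-binding family, and had 23.9, 11.2 and 11.2 FPKM on 10, 4 and 7 fragments. BnaC07g38660D, a RING/U-box gene of the type found in ubiquitin ligases, had 10.3, 22.5 and 10.6 FPKM on 15, 28 and 23 fragments. BnaC07g29250D, for a Ran BP2/NZF zinc finger protein, reached 76.2, 44.7 and 32.0 FPKM, yet on 8, 4 and 5 fragments. Of these genes NAC097 varied least between the vasculature libraries.

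Small proteins of the membrane and of metal handling made up a further group. The heavy metal transport and detoxification gene BnaAnng29300D had 13.3, 22.2 and 15.3 FPKM on 7, 10 and 12 fragments. BnaC03g34410D belongs to the low temperature and salt responsive proteins, which are short hydrophobic membrane proteins, and had 18.7, 32.9 and 18.8 FPKM on 4, 6 and 6 fragments. The reticulon gene BnaA07g26930D, of a family that bends membranes of the endoplasmic reticulum, had 13.2, 23.7 and 11.7 FPKM on 28, 43 and 37 fragments. For BnaA05g36130D, which resembles the B-cell receptor-associated protein 31 of animals, 15, 17 and 20 fragments gave 18.4, 24.5 and 16.5 FPKM. Vasculature 2 held the highest value of all 4.

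Genes with a DUF3339 domain, short proteins of unknown function, appeared 3 times under 3 different Arabidopsis matches. BnaA07g15210D had 46.6, 45.5 and 26.1 FPKM, BnaAnng27000D 29.6, 86.7 and 29.8 FPKM, and BnaC09g54570D 29.6, 17.3 and 49.7 FPKM. Each rested on 16 or 20 fragments over the vasculature, and their bounds lay between at least 6.53-fold and at least 8.16-fold. The order of the 3 libraries differed between the 3 genes. Of 5 DUF3339 transcripts on the study's vasculature list, all were listed at 0 in at least 1 outer library, and the 3 that reached 10 FPKM in each vasculature library are the members.

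In all, 16 members are described only as unknown proteins or proteins of unknown function. The best covered of these, BnaA01g11960D, had nearly equal values of 27.9, 28.5 and 29.5 FPKM on 47, 41 and 74 fragments and a bound of at least 66.1-fold. BnaA04g16000D, with a DUF662 domain, had 17.4, 11.4 and 21.6 FPKM on 34, 19 and 63 fragments. BnaC05g25270D had 29.2, 29.5 and 23.0 FPKM, and BnaC04g07780D 19.7, 19.1 and 18.7 FPKM with an SD of 0.524 FPKM around a mean of 19.2 FPKM (n = 3). BnaC08g06370D stood at 13.8, 25.2 and 18.6 FPKM and BnaC06g06880D, with a DUF1677 domain, at 17.4, 25.5 and 18.1 FPKM. The members BnaAnng02940D and BnaC05g45990D share 1 Arabidopsis match and are copies of 1 gene, with 36 and 16 fragments over the vasculature. BnaC03g04450D, whose closest described relative in Arabidopsis is the flowering promoting factor FPF1, had 26.3, 28.4 and 29.9 FPKM on 13, 12 and 22 fragments. For 2 members, BnaC06g29620D and BnaC06g31080D, no description was at hand. Reads shared between near-identical copies of this allotetraploid genome could move fragments from one to the other, and how they were assigned is not given in the sources used here.

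Between the vasculature libraries the members varied by a median factor of 1.76 from the lowest to the highest value, from 1.05 to 12.2. In 21 of 33 the factor was under 2. The widest was that of BnaA09g30770D with 26.6, 218 and 17.8 FPKM. Members under 50 fragments had a median factor of 1.81 and the 15 others one of 1.46. Among the other transcripts at 10 FPKM or more the factor was 1.55, and 2.00 in the 146 under 50 fragments. Vasculature 2 held the highest value in 14 members (42.4%), against 29.1% of the other transcripts. Vasculature 1 held it in 11 members and vasculature 3 in 8.

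The boundary of the set is not sharp. Just inside the threshold of 10 FPKM stood BnaC07g38660D, whose lowest vasculature value was 10.3 FPKM, followed by BnaA07g27110D at 10.3, BnaC09g36700D at 10.9, BnaA10g05960D at 11.0 and BnaC06g33820D at 11.2 FPKM. Just outside stood BnaC07g23020D, a copper transport gene, at 9.47 FPKM, then BnaC03g05230D, a proline-rich gene, at 9.16, BnaA06g14130D at 9.02, BnaC01g06600D, an early nodulin-like gene, at 8.95 and BnaA06g38750D at 8.64 FPKM. On the side of the zeros, 38 further transcripts at 10 FPKM or more in each vasculature library had 1 single fragment over the 5 outer libraries. They had between 3 and 597 fragments in the vasculature with a median of 55.5. Membership rested most on cortex 2, the deepest outer library. Without it 106 transcripts met the rule, and without cortex 1, 51 did. Leaving out vasculature 2 gave 52, and leaving out any other single library between 35 and 48. The 35 was without epidermis 3, a deeper library than cortex 1, so the counts did not follow depth alone.

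The same rule turned to other tissues found fewer transcripts. Of 4590 transcripts at 10 FPKM or more in all 5 epidermis and cortex libraries, 12 were listed at 0 in the whole vasculature. Though fewer, these 12 were better covered, with a median of 173.5 fragments against 42.5 under the vasculature rule, which has fewer high libraries. Only 1 of 5711 was at 10 FPKM in the epidermis and 0 in the cortex and vasculature, and 3 of 6430 were so for the cortex. With the cortex and vasculature both at 10 FPKM, 5 of 4194 were at 0 in the epidermis. Of the 6204 transcripts at 10 FPKM in the vasculature, 5659 (91.2%) were above 0 in each outer library. Depth differs between these rules and so does the number of libraries that must be 0, and no test of the counts was made. The members were split between the subgenomes much like other transcripts, with 15 on A and 18 on C (45.5% on A), against 47.2% on A among all transcripts at the same vasculature level.

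The whole funiculus libraries were not used by the rule and show whether the members can be seen in the undissected organ. Whole funiculus 1 and 3 both held 30 of 33 members at a level of at least 1 FPKM (90.9%), against 99.6% of the other transcripts at 10 FPKM in the vasculature. BnaC06g29620D was listed at 0 in both. BnaA09g30770D and BnaAnng38100D were at 0 in whole funiculus 1 and rested on 1 and 3 fragments in whole funiculus 3. These are the same 3 members whose bound over the outer tissues lay under 5-fold.

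Members stood lower in the whole funiculus than in the vasculature. The ratio of the mean whole funiculus FPKM to the mean vasculature FPKM had a median of 0.344 with quartiles of 0.241 and 0.466, whereas the other transcripts at the same vasculature level had a median of 0.743. The median ratio fell stepwise with the number of outer libraries listed at 0, from 0.769 with none, over 0.463, 0.458, 0.420 and 0.370 with 1 to 4, to the 0.344 of the members. The median number of vasculature fragments was 306, 272, 312, 218, 145 and 38 in the same order. The part of depth in the ratio was not tested. The whole funiculus contains the outer tissues, and the vasculature values of this ratio also chose the transcripts. Some fall is therefore built into the sorting, and the stepwise fall is a description. Among transcripts under 50 fragments the median ratio was 0.312 in the members and 0.682 in the others, and among those with 50 or more it was 0.435 and 0.744. In bulk samples of this kind, fewer cells of a type and less RNA per cell cannot be told apart.

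**Figure D3:**
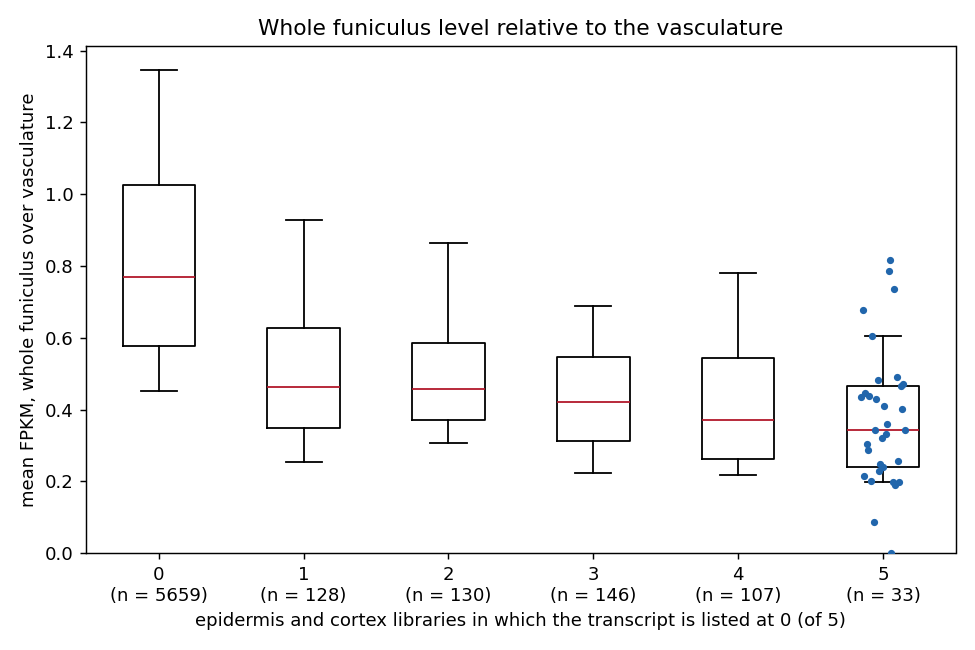
Ratio of mean FPKM in whole funiculus 1 and 3 to mean FPKM in vasculature 1 to 3, for transcripts of at least 10 FPKM in each vasculature library, by the number of outer libraries listed at 0. Boxes give quartiles and median, whiskers the 10th and 90th percentiles, and points the 33 members, whose median is 0.344.

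Within the set the ratio spread widely. With 18.1 and 15.2 FPKM in the 2 libraries, BnaC06g06880D overlapped its vasculature values, with a ratio of 0.818. BnaC05g45990D had 6.12 and 23.2 FPKM (0.787), BnaC06g33820D 10.6 and 12.1 FPKM (0.736), the HMG box gene BnaA01g13430D 6.98 and 12.9 FPKM (0.677), and BnaA07g27110D 4.25 and 11.0 FPKM (0.604). These 5 are the highest ratios, and in each the groups overlapped. Single libraries carried part of this order, since BnaC05g45990D stood at 1.25 without whole funiculus 1 and at 0.328 without whole funiculus 3, and BnaA07g27110D at 0.337 without whole funiculus 3. At the low end, behind BnaC06g29620D at 0, were BnaA09g30770D (0.0855), the zinc finger gene BnaC07g29250D with 14.1 and 5.36 FPKM (0.191), *CXXS1* (0.197) and BnaC06g31080D with 50.1 and 19.0 FPKM (0.199). The place of 2 of these rested on vasculature 2, without which BnaA09g30770D stood at 0.337 and *CXXS1* at 0.508. Leaving out whole funiculus 1 or 3 moved BnaA09g30770D to 0.171 or 0, the zinc finger gene to 0.105 or 0.277 and BnaC06g31080D to 0.110 or 0.289. The *SEOB* transcript was at 1.97 and 4.48 FPKM, a ratio of 0.241, on 11 and 33 fragments, and at 0.147 without whole funiculus 3.

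Computed from summed fragments, the ratio had a 95% exact interval (counting error only) below 1 in 27 members and one that reached 1 or more in 6. An interval below 1 was also found for 60.6% of the 6126 other transcripts. Since the vasculature values in this ratio also chose the members, nothing is read from the count of intervals. They describe counting error and leave out the spread between libraries. *SEOB* had a ratio of 0.253 with an interval from 0.178 to 0.353, the carrier BnaA07g10830D 0.278 (0.200 to 0.380), and BnaA04g16000D 0.194 (0.115 to 0.310). The HMG box gene stood apart from them at 0.723 (0.583 to 0.895), and the HSP20-like gene at 0.535 (0.427 to 0.667). *CXXS1*, with 6 fragments in the whole funiculus, had 0.238 with an interval from 0.0802 to 0.588. Among the well covered members the intervals of *SEOB* and the HMG box gene do not meet. That of *CXXS1* holds the whole interval of *SEOB* and just reaches that of the HMG box gene. Leaving out single libraries moved some ratios of mean FPKM beyond these intervals. The HSP20-like gene stood at 0.721 without vasculature 2 and at 0.357 without whole funiculus 3. Without whole funiculus 3 the HMG box gene stood at 0.475 and *SEOB* at 0.147.

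**Figure D4:**
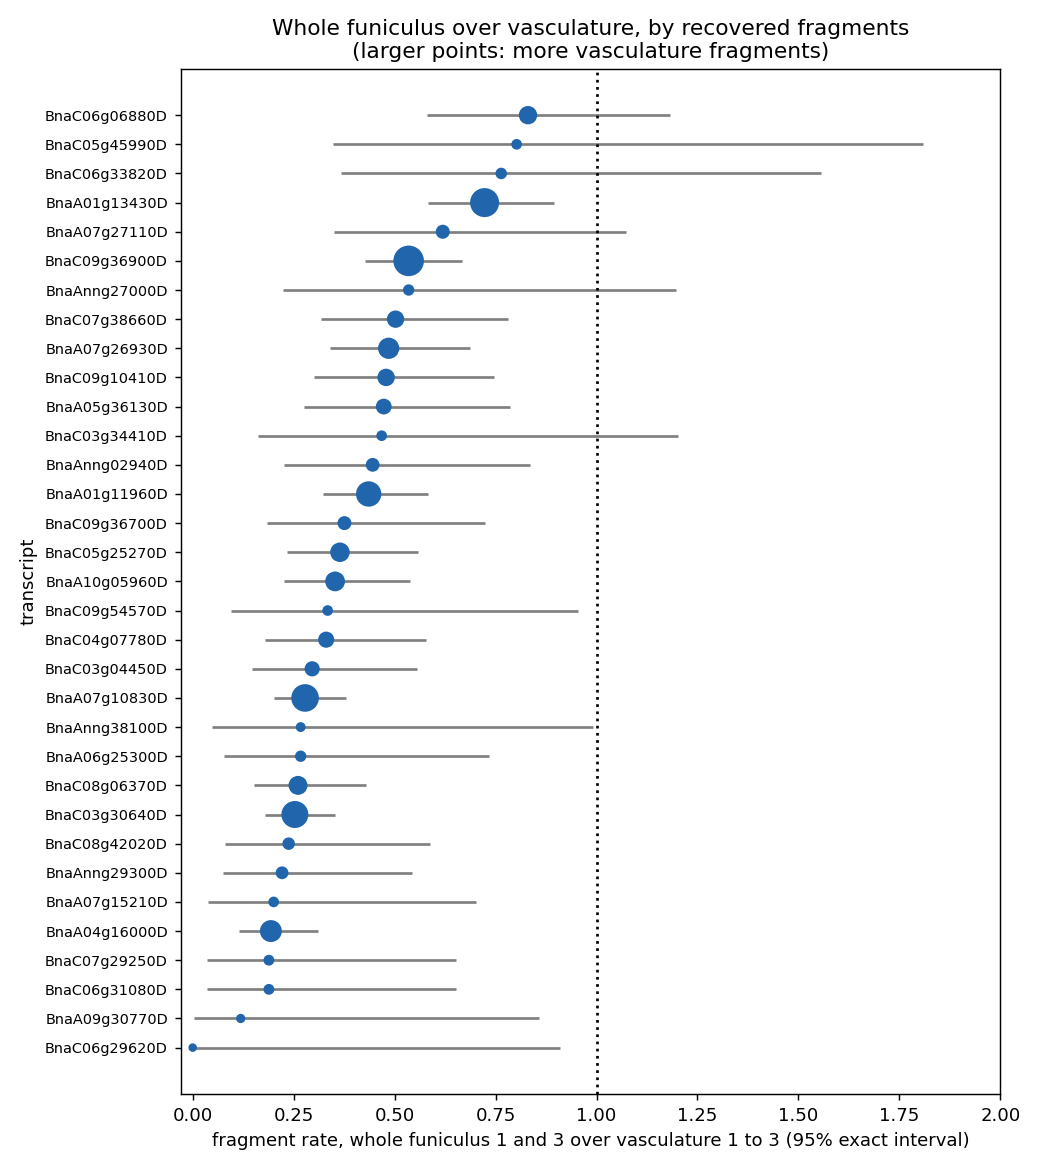
Fragment rate of each member in whole funiculus 1 and 3 relative to vasculature 1 to 3, with 95% exact intervals for counting error and point area growing with the vasculature fragments. Intervals of 27 members lie below 1 (dotted), and those of 6 members with few fragments or a high ratio reach it.

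By limma, 12 of 33 members passed an adjusted p of 0.05 as higher in the vasculature than in the whole funiculus, against 0.239% of all 46004 transcripts tested and 0.790% of those at 10 FPKM in the vasculature. The vasculature libraries of this comparison are those that chose the members, so the count is a description and nothing is read from it. The 12 are BnaA04g16000D, BnaA07g10830D, BnaA07g15210D, BnaA10g05960D, BnaAnng29300D, BnaC03g30640D, BnaC04g07780D, BnaC05g25270D, BnaC06g29620D, BnaC06g31080D, BnaC07g29250D and BnaC08g06370D. The count was 2 without vasculature 1, 2 without vasculature 3, 4 without vasculature 2, 7 without whole funiculus 1 and 3 without whole funiculus 3, while leaving out an epidermis or cortex library gave 8 to 10. Computed on the recovered fragments it was 3. Without any test, both whole funiculus values lay below the lowest vasculature value in 26 members, against 18.0% of all transcripts tested and 38.6% of those at 10 FPKM in the vasculature.

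Copies of the members were mostly listed at 0 in the same libraries. The study's lists hold 10 further transcripts with the Arabidopsis match of a member, for 8 of the members, and all 10 are on its vasculature list. Since that list was picked on these same libraries, the copies are no independent evidence. Of the 10 copies, 9 were also listed at 0 in all 5 outer libraries and missed the rule by their vasculature level. The exception is BnaA06g27750D, a copy of the zinc finger gene, with 19.6, 23.4 and 14.5 FPKM in the vasculature on 49, 50 and 54 fragments, and with 1 and 11 fragments in cortex 1 and 2. The member BnaC07g29250D, with 17 fragments over the vasculature, had a bound of at least 3.36-fold over the cortex alone. Some of the 9 rested on few vasculature fragments, such as 3, 2 and 3 for BnaA10g21640D and 1, 3 and 5 for BnaC08g36350D. The share at 0 in all 5 outer libraries was not counted over the whole vasculature list. Vascular transcription factors on that list had a median of 5 outer libraries at 0, and phloem transcripts one of 1.5. Nothing is therefore read from the 9 of 10. The DUF1677 pair was closest in depth, with 20, 25 and 31 fragments for BnaC06g06880D and 25, 21 and 27 for BnaA06g01330D, which correspond to 9.11, 8.96 and 6.60 FPKM in the latter. The RING/U-box pair shared its highest library, since BnaC01g15840D had 9, 23 and 8 fragments where BnaC07g38660D had 15, 28 and 23.

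Neighbouring transcripts, which the rule did not use, gave a further comparison in the same libraries. The next identifiers up and down on the same chromosome gave 58 neighbours, 38 of them tested, for the 29 members on numbered chromosomes. None passed the thresholds of the study (at least 5-fold over both outer tissues, p under 0.005 and adjusted p under 0.05 in both limma contrasts), against 4.31% of all 45300 transcripts tested. With 38 tested, few calls would be expected at that share, and nothing is read from the count. Before adjustment, 6 of the 38 had a limma p under 0.05 over each outer tissue, beside 10.3% of all transcripts. With so few tested, nothing is read from this count either. On recovered fragments 1 neighbour passed the thresholds. Without epidermis 2, vasculature 2 or vasculature 3 in turn, 1 neighbour passed. Beside *CXXS1*, BnaC08g42010D had 41.2, 138 and 51.9 FPKM in the vasculature, with its highest value in vasculature 2 as *CXXS1* had, but it also had 11.1 and 12.8 FPKM in the cortex and 24.2 FPKM in epidermis 2. Beside the HSP20-like gene, BnaC09g36910D went the other way, with 4.42, 9.86 and 4.10 FPKM in the vasculature and 27.9 to 38.2 FPKM in the epidermis. Its log2 difference to the epidermis was -2.37 ± 0.38 (SE) with a limma adjusted p of 0.00293, and that to the cortex -1.76 with an adjusted p of 0.0322.

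Of 9 gene lists joined to the study's vasculature list through Arabidopsis matches, 5 had no member. The xylem and secondary wall list had 0 of 27, apart from the further transcript that meets the rule and is not described, which is on it, although 20 of its transcripts were listed at 0 in at least 1 outer library and 12 reached 10 FPKM in each vasculature library. The vascular transcription factors had 0 of 23, with 3 at that level and 17 with an outer 0, and the glucosinolate, wall glycoprotein and SUMO lists had 0 of 13, 0 of 13 and 0 of 6. The median number of outer libraries at 0 was 5 in the vascular transcription factors and 4 in the xylem and secondary wall list. It was 3 for wall glycoproteins and 0 for the glucosinolate and SUMO lists. A list without members can thus hold transcripts at 0 in every outer library that missed the rule by their vasculature level. The phloem list had 1 of 24, cell division and histones 1 of 39, metal handling and thioredoxins 2 of 21, and DUF3339 proteins 3 of 5. Across all 684 transcripts of the vasculature list there were 31 members. The lists were written with earlier results of these data known and contain only transcripts picked on these libraries.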

How the data were processed

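Laser-microdissected funiculus tissue was profiled as 50 bp single-end reads. Per the labels and the methods, the authors amplified the cDNA, aligned the reads by TopHat2 2.0.13 and obtained the FPKM values from Cufflinks 2.2.1, on the public *B. napus* genome. The deposited table of FPKM values holds 97902 transcripts in 11 libraries, all matched to a sample by column name. FPKM scales for transcript length and mapped reads, and was not scaled again. The members and gene lists were chosen with earlier results of these data known. No genome or sequence table of the files' build was used, so no sequence or coordinate is given, and promoter motifs were not searched. RefSeq symbols (Da-Ae assembly) matched 7 of 33 members and carry no functional name.

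Relative depth and fragments were recovered from the steps between values (tolerance 0.01 fragments) and tested on simulated data. Comparisons used limma 3.58.1 in R 4.3.3 on log2(FPKM + 1), with a variance trend, Benjamini-Hochberg adjustment over all transcripts with a group mean of at least 1 FPKM, 10 libraries for the whole funiculus contrast and 8 for the tissues. Replicates are pools of pieces from several plants. Ratios carry exact (Clopper-Pearson) intervals, and limits of a 0 use 3 fragments. Software was scipy 1.17.1, pandas 2.3.3 and numpy 2.4.6 under Python 3.11.15. Named transcripts were the 10 members with the highest lowest vasculature value, members on the gene lists, the 5 highest and 5 lowest ratios, 5 on either side of the threshold, members called by limma, and neighbours and copies. Other members were named as examples of their role, after their values were seen. Alternatives were other thresholds, pseudocounts, filters, a replicate block and leaving out each library. Tests on recovered fragments (voom) and ratios of summed fragments were added after the data were seen.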

Additional observations from a re-analysis of the deposited data

Results flagged for a closer look

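Whole funiculus 2 was not used in the comparisons. In it 11 of 33 members were above 0, and 3 of them passed the limit of 3 fragments that a count of 0 allows. The FPKM values of this library summed to 1.83e+06, against 439770 and 491871 in whole funiculus 1 and 3. They may therefore not be on the same scale. The NAC097 transcript BnaA10g05960D had 44 fragments there, or 62.3 FPKM, against 13 and 17 fragments or 4.52 and 4.49 FPKM in whole funiculus 1 and 3. BnaC06g06880D had 22 fragments or 57.9 FPKM, against 28 and 31 fragments or 18.1 and 15.2 FPKM. BnaC03g04450D had 5 fragments or 30.5 FPKM, against 9 and 4 fragments or 13.5 and 4.55 FPKM. *CXXS1* and the HMG box gene BnaA01g13430D were listed at 0 in this library.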

How the results depend on the processing

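The set has 80 members at a vasculature minimum of 5 FPKM, 11 at 20 FPKM, and 114 with up to 1 FPKM allowed in each outer library; leaving out 1 library gave 35 to 106. With whole funiculus 2 counted, 9 members were detected in every whole funiculus library and the median ratio was 0.273; at 5 FPKM, 17 were detected. Leaving out 1 library gave 30 to 32 detected and a median ratio of 0.332 to 0.372. Members called over the whole funiculus numbered 7 and 2 with pseudocounts of 0.5 and 0.1 FPKM, 4 with no filter, 1 with whole funiculus 2 kept and 3 by voom, and 2 to 10 with 1 library left out. Over all transcripts 633 were called, with 31 when whole funiculus 2 was kept, 1415 by voom, and 271 to 677 with 1 library left out. Tissue calls fell from 1952 to 1283 under a filter of 5 FPKM, which tests fewer transcripts, and were 1316 to 1911 with 1 library left out. Copies called numbered 8 of 10, against 4.31% of all transcripts tested. They numbered 5 of the 7 tested under the filter of 5 FPKM and 5 to 10 with 1 library left out. All copies are on the study's vasculature list, which was picked on these libraries, so these counts are a description. Neighbours called rose from 0 to 1 by voom and to 1 with the next identifiers but one added, and were 0 to 1 with 1 library left out. Of 198 single ratios under alternatives, 185 stayed within the main counting interval and 13, in 10 members, did not. For each member the alternatives include the ratio of summed fragments, which lies in that interval by construction. The interval is also wide for members of few fragments. The cause of the other changes was not tested.

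Replicate numbers did not pair the libraries: 2 of 12 same-numbered pairs had deviations correlated over 0.1 (from -0.0982 to 0.202). With a replicate block, 284 transcripts and 2 members were called over the whole funiculus.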
